A study of Mus musculus with 2 samples.

Results

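The genes described here make, modify, move and break down the galactolipids of myelin and the very-long-chain sphingolipids they are built on. The 10 genes Ugt8a, Fa2h, Gal3st1, Cers2, Elovl1, Elovl7, Degs1, Galc, Arsa and Gltp were chosen by symbol for these roles, out of 30920 genes on the array, and where a gene has several probe sets the one with the highest mean of both arrays is used. All 10 were on the array, each with 1 probe set. RNA came from male C57BL/6 mice: a control mouse and a mouse on a diet with 0.2% cuprizone for 6 weeks, as far as the labels say. Cuprizone is a copper chelator that damages oligodendrocytes and serves as a model of demyelination. Each group had 1 array, hybridised to the Affymetrix Mouse Gene 2.0 ST chip and read as log2 RMA expression levels, so the differences have no error and no test, and they compare these arrays rather than the diet as such. Because the diet is described under both samples, the grouping follows the treatment label. What the 5 in the cuprizone sample's tag CPZ-5 stands for is not given. The series text speaks of 2 subjects and no pooling is mentioned.

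Galactosylceramide and its sulfated form, sulfatide, are the typical glycolipids of the myelin sheath that oligodendrocytes wrap around axons. They are made from ceramide, a long-chain base joined to a fatty acid, which in myelin is often very long and hydroxylated. Galactose is added in the endoplasmic reticulum, sulfate in the Golgi apparatus, and both are taken off again in lysosomes, where loss of Galc or Arsa activity causes the demyelinating storage diseases known in humans as Krabbe disease and metachromatic leukodystrophy.

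The values can be read against a few facts of the whole table. The quartiles of all 41345 probe sets were 3.11, 4.33 and 5.56 for the control and 3.13, 4.36 and 5.54 for the cuprizone array, and precision is limited by there being only 2 arrays. Genes whose brighter level was at least 4.34, the median of all values, are called measured, 16559 in number. Olfactory and vomeronasal receptor genes, which brain barely transcribes, gave a background bound at the upper end of their central 95%, 4.68 for the control and 4.71 for the cuprizone array. The filter of 4.34 lies below these bounds, so some measured genes lie within the background on both arrays. As deposited, 1.35% of measured genes were at least 1.5-fold lower and 1.6% higher. With values raised to the bounds these shares were 0.604% and 0.64%. Both samples carry the label cerebellum, but Gabra6, of cerebellar granule cells, was at 1.84 and 1.97 and Pcp2, of Purkinje cells, at 3.18 and 3.69, all within that background. Of 6 cerebellum markers listed 2 lay above it on both arrays and 3 within it on both, while 6 of 6 forebrain markers lay above it on both. The tissue is therefore called the tissue labelled cerebellum.

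The enzymes that give a myelin galactolipid its particular structure had the lowest differences of the 10 genes, and those that supply its ceramide differed by less. Fa2h, the hydroxylase, and Ugt8a, the galactosyltransferase, were lower by 1.5-fold or more in the cuprizone mouse. Gal3st1, the sulfotransferase, was 1.47-fold lower as deposited and, since its value in that mouse lay within the background, at least 1.40-fold lower. A fold of at least 1.5 was reached downward by 2 of the 10 genes, against 1.35% of the 16559 measured genes, and upward by 0 of the 10, against 1.6%. In all, 8 of the 10 were lower and 2 higher, where 51.6% of measured genes were lower. The median of the 10 log2 differences, cuprizone minus control, was -0.18, beside -0.01 over all measured genes.

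**Figure D1:**
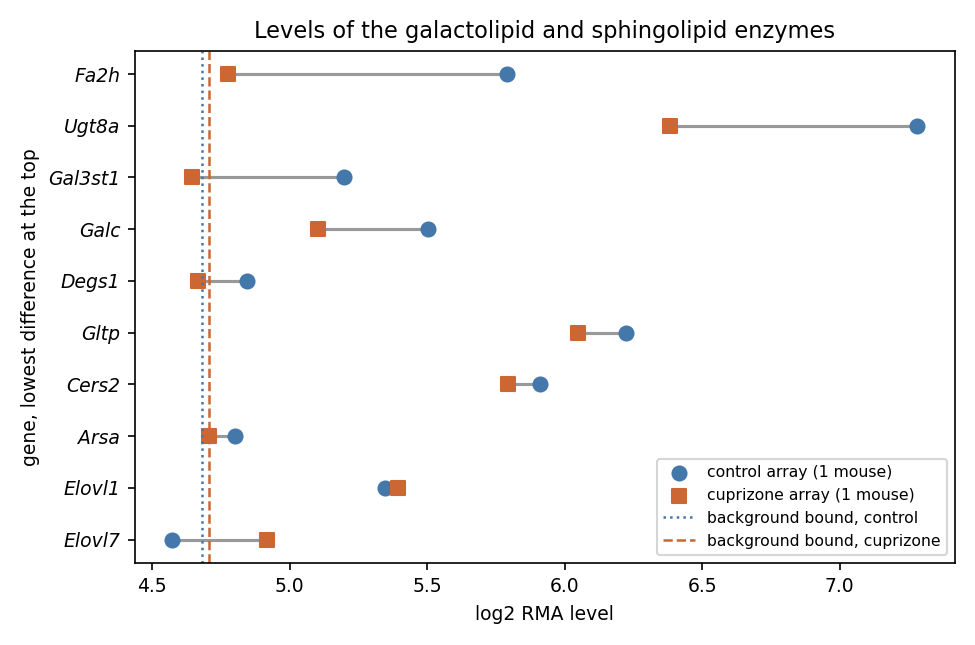
Log2 RMA level of each of the 10 genes on the control array (circle) and the cuprizone array (square), 1 mouse each, ordered by their difference, with the background bound of each array as a vertical line. The longest gaps are those of Fa2h (5.79 to 4.78) and Ugt8a (7.28 to 6.38), and 4 genes have 1 value within the background.

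All 10 genes passed the level filter. Of the 10, 6 lay above the background on both arrays, 4 lay within it on 1 array and 0 on both. Gal3st1, Degs1 and Arsa were within it on the cuprizone array and Elovl7 on the control array, so for these 4 a difference is also given as a lower bound, with the dim value replaced by the background bound of its array. Their probe sets hold 19 to 29 probes and all 10 are marked in the annotation as free of cross-hybridisation. In bulk tissue, fewer cells of a type and less RNA per cell cannot be told apart.

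Ugt8a encodes the ceramide galactosyltransferase, the enzyme that makes galactosylceramide. Its probe set, 17410114, lies on the minus strand of chromosome 3 from 125865343 to 125938550 in the array's annotation, whose genome build is not named in the sources used here. Its log2 level was 7.28 in the control mouse against 6.38 in the cuprizone mouse, a difference of -0.90 or 1.87-fold lower. Both levels were well over the background bounds, and the difference ranked 41 from the lowest of the 16559 measured genes. Among 2708 measured genes with a mean level within 0.5 of its own, the central 95% of differences ran from -0.41 to 0.34.

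Fa2h adds the hydroxyl group to the fatty acid that galactolipids of myelin carry, and its loss in humans causes a leukodystrophy with spastic paraplegia. Its probe set, 17513092, spans 111345135 to 111393824 on the minus strand of chromosome 8. The level was 5.79 in the control mouse against 4.78 in the cuprizone mouse, a difference of -1.01 or 2.02-fold lower. This was the largest difference of the 10 and ranked 18 from the lowest of all measured genes. At a 2-fold threshold Fa2h alone of the 10 was counted, where 0.127% of measured genes were lower by that fold and 0.223% higher. Its level on the cuprizone array was only just above the background bound of 4.71.

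Gal3st1, the cerebroside sulfotransferase, turns galactosylceramide into sulfatide. Its probe set, 17246700, spans 3983636 to 3999328 on the plus strand of chromosome 11. The level was 5.20 in the control mouse against 4.64 in the cuprizone mouse, the latter within the background. The difference as deposited was -0.55, and with the dim value raised to the bound Gal3st1 was lower by at least 0.49, or 1.40-fold, so whether it reached 1.5-fold cannot be read from these arrays. As deposited, Ugt8a, Fa2h and Gal3st1 were the 3 genes of the 10 whose difference fell outside the central 95% of measured genes of like level. For Gal3st1 that range ran from -0.50 to 0.53, so its bound of 0.49 lies inside it.

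Promoter windows are shown for Ugt8a and Gal3st1, the lowest genes with an entry in the table used, and for Elovl7, the gene with the highest difference. They come from RefSeq on GRCm38.p6, run from 250 bases before the annotated start site to 50 after it, and are printed in the direction of the gene in lower case. Capitals mark a match to any of the 7 motifs searched. The windows are chr3:125938603-125938902 on the minus strand for Ugt8a, chr11:3983386-3983685 on the plus strand for Gal3st1 and chr13:108214154-108214453 on the plus strand for Elovl7.
Ugt8a: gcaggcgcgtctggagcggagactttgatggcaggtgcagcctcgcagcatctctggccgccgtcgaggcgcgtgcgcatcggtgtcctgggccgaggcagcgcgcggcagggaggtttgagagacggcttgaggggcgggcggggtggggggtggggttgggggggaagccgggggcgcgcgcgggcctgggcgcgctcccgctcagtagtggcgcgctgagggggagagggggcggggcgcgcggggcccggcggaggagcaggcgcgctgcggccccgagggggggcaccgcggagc
Gal3st1: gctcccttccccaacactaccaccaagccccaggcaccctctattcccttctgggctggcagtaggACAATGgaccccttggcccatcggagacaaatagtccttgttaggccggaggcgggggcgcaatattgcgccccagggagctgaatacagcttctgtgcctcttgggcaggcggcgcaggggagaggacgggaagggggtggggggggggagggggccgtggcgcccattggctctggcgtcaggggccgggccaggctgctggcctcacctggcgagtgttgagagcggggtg
Elovl7: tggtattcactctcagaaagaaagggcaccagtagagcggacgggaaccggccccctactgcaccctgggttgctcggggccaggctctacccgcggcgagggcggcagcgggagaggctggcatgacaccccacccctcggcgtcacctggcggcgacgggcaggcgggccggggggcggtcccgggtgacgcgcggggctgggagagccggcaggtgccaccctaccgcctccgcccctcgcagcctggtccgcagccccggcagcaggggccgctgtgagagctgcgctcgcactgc

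The table held 13 windows for 9 of the 10 genes, with no entry for Fa2h. The SOX core ACAATG is bound by a family of factors that includes Sox10 of oligodendrocytes. It was found in 2 of the 13 windows, which overlap and both belong to Gal3st1, and is in 12.6% of all 32851 windows on either strand. In the Gal3st1 window shown it lies 184 bases before the start site. The other SOX core searched, ACAAAG, is in 18.7% of windows and in 0 of the 13. The MYRF motifs CTGGCAC and CTGGTAC, the CLEAR core TCACGTGA of many lysosomal genes and the sterol element core TCACNCCAC were also in 0 of the 13, and are in 5.01%, 2.24%, 0.974% and 1.24% of all windows. The E-box CAGCTG was in windows of Degs1 and Cers2 and is in 16.3% of all windows. Ugt8a's window was 78.3% G and C with 40 CpG pairs, Elovl7's 74.0% with 30 and the Gal3st1 window shown 67.0% with 14. The medians over all windows were 52.7% and 7. Gal3st1 also had windows of 68.0% with 17 and of 56.0% with 2, the last without any of the motifs searched. These matches describe letters in short windows and not binding.

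**Figure D2:**
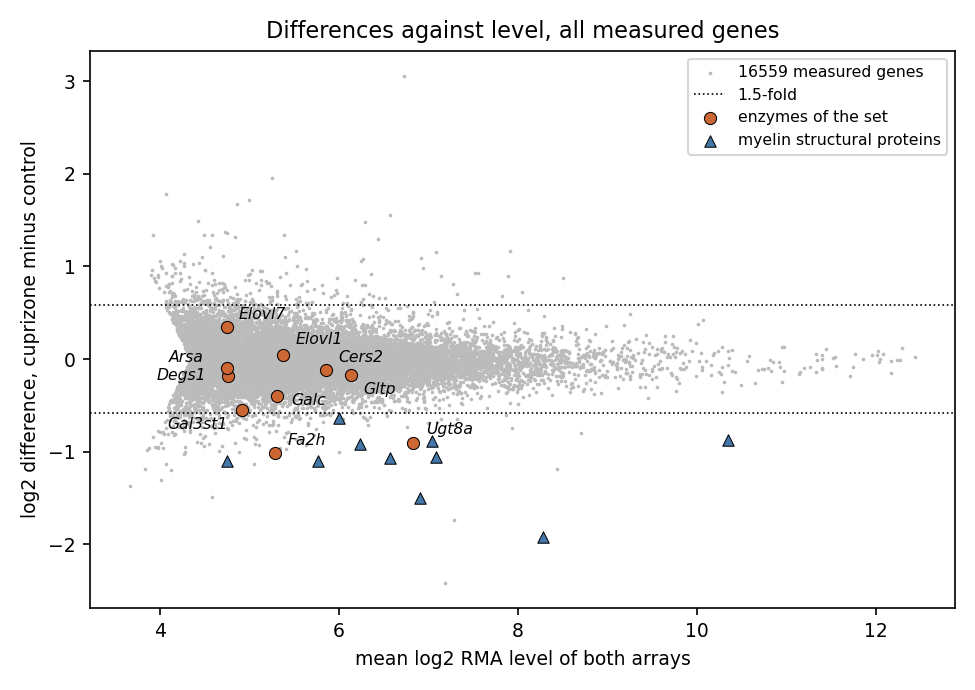
Log2 difference, cuprizone minus control, against the mean log2 level of both arrays for 16559 measured genes (grey), the 10 enzymes (circles) and 10 myelin structural proteins (triangles), with 1.5-fold as dotted lines. Fa2h and Ugt8a lie among the triangles below the lower line, Gal3st1 lies just above that line with its value as deposited, and the other enzymes lie within the grey cloud.

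The enzymes that join and desaturate the ceramide differed by less than Ugt8a and Fa2h. Cers2, the ceramide synthase that joins very-long-chain fatty acids to the sphingoid base, read 5.91 in the control mouse and 5.79 in the cuprizone mouse, a difference of -0.12. Its probe set, 17400317, lies on chromosome 3 from 95314792 to 95323588, plus strand. Degs1, which places the double bond that turns dihydroceramide into ceramide, was at 4.85 and 4.67, the latter within the background. Its difference of -0.18 becomes lower by at least 0.14 against the bound (probe set 17230595, chromosome 1, 182275770 to 182282804, minus strand). For both genes the difference lay well inside the central 95% of genes of like level.

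The elongases were the only 2 of the 10 genes that were higher on the cuprizone array as deposited. Elovl1, which extends saturated fatty acids to the lengths that Cers2 uses, read 5.35 in the control mouse and 5.39 in the cuprizone mouse, a difference of 0.05 that turned to -0.22 with hybridization spike-in scaling and -0.33 with poly-A spike-in scaling. Its probe set, 17417767, spans 118428093 to 118432953 on the plus strand of chromosome 4. Elovl7, another elongase of long-chain fatty acids, was at 4.57, within the background, and 4.92. Its difference of 0.34 becomes at least 0.23 against the bound, and scaling on the poly-A spike-ins gave -0.03 (probe set 17289717, chromosome 13, 108214404 to 108287109, plus strand). Among genes of its level the central 95% ran from -0.53 to 0.56.

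The genes for transfer and breakdown were all lower, by less than 1.5-fold as deposited. Galc, the lysosomal galactosylceramidase, read 5.51 in the control mouse and 5.10 in the cuprizone mouse, a difference of -0.40 or 1.32-fold lower, and ranked 762 from the lowest. Its central 95% at like level began at -0.49, so the value lay inside it (probe set 17283096, chromosome 12, 98202300 to 98259459, minus strand). Arsa, arylsulfatase A, which takes the sulfate off sulfatide, was at 4.80 and 4.71, the second value at the background bound, a difference of -0.09 that is the same to 2 decimals against the bound (probe set 17320538, chromosome 15, 89472476 to 89477425, minus strand). Gltp, a cytosolic protein that binds and moves glycolipids between membranes, was at 6.22 and 6.05, a difference of -0.18 (probe set 17451568, chromosome 5, 114669403 to 114690984, minus strand).

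The annotation places these genes in several compartments. The term endoplasmic reticulum membrane is given to 5 of the 10, Fa2h, Cers2, Elovl1, Elovl7 and Degs1, and to 3.56% of measured genes. The term lysosome is given to Galc and Arsa and the term Golgi membrane to Gal3st1. Of the 5 genes placed in the endoplasmic reticulum membrane, Fa2h was at least 1.5-fold lower and the other 4 differed by under 1.5-fold as deposited. The 589 measured genes with that term had a median difference of -0.04. By 1.5-fold or more 5 of them were lower and 7 higher, against 1.35% and 1.6% of all measured genes. Ugt8a and Gal3st1 are the only 2 measured genes with the term galactosylceramide biosynthetic process.

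Beside the structural proteins of myelin, Fa2h and Ugt8a lay in the same range and the other 8 enzymes did not reach it as deposited. The 10 structural genes listed were all at least 1.5-fold lower, against 1.35% of all measured genes. Their median difference was -1.06. They ranged from -0.64 for Cnp, a phosphodiesterase of non-compact myelin, to -1.93 for Mobp, a basic protein of compact myelin. Mal, a membrane protein of myelin, differed by -1.50, and Opalin, of mature oligodendrocytes, was lower by at least 0.60. Mbp, which compacts the sheath, was at 7.61 and 6.56, Mag, an adhesion molecule of its inner face, at 7.10 and 6.03, and Mog, a surface protein, at 6.69 and 5.78. No test of the difference between the enzymes and the structural genes can be had with 1 array a group. The structural genes were known to be lower in these data when the list was drawn up, so they are no independent support.

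Markers of other cells that could hold these enzymes are given beside them. Listed markers of oligodendrocyte precursor cells were close to even: of 7 markers 3 were lower and 4 higher, with a median of 0.01. Pdgfra, a growth factor receptor of these cells, was at 6.64 and 6.74. The list includes Sox10, named above for oligodendrocytes, so it does not stand for precursor cells alone. Schwann cells also make galactolipids, and of 4 of their markers 1 lay above the background on both arrays and 2 lay within it on both. Microglia and macrophage markers were higher in 12 of 13 genes, beside 45.3% of all measured genes. Their mean level was 5.64 in the control mouse against 6.27 in the cuprizone mouse. Cd68, a lysosomal protein of phagocytes, went from 5.79 to 7.34 while Aif1, at 4.49 and 4.74, lay within the background on the control array and was higher by at least 0.06. Of 7 astrocyte markers 2 were lower and 5 higher, with a median of 0.06. Gfap, at 7.33 and 8.50, was the 1 past 1.5-fold, where 1.6% of measured genes were higher by that fold. Of 6 neuron markers 3 were lower and 3 higher, with a median of 0.03, and Snap25 was at 9.55 and 9.45. Endothelial markers were lower in 4 of 4 genes, with a median of -0.43, where 51.6% of measured genes were lower. Of the 4, 1 was lower by 1.5-fold or more, against 1.35% of measured genes. The part of these cells in the values of the 10 enzymes was not tested.

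None of the other measured genes in the sphingolipid lists differed by as much as Fa2h or Ugt8a. Another 75 genes, in 8 lists of the pathway and of genes near it, were on the array, and 65 were measured. Of these, 35 were lower and 26 higher, where 51.6% of all measured genes were lower and 45.3% higher. By 1.5-fold or more 0 were lower and 1 was higher, against 1.35% and 1.6% of all measured genes. These counts lie near those shares, and the median was -0.04. Spike-in scaling lowers every difference by the same amount, 0.26 for the hybridization and 0.38 for the poly-A spike-ins, so any positive difference smaller than these would turn negative, while the order of genes stays.

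**Figure D3:**
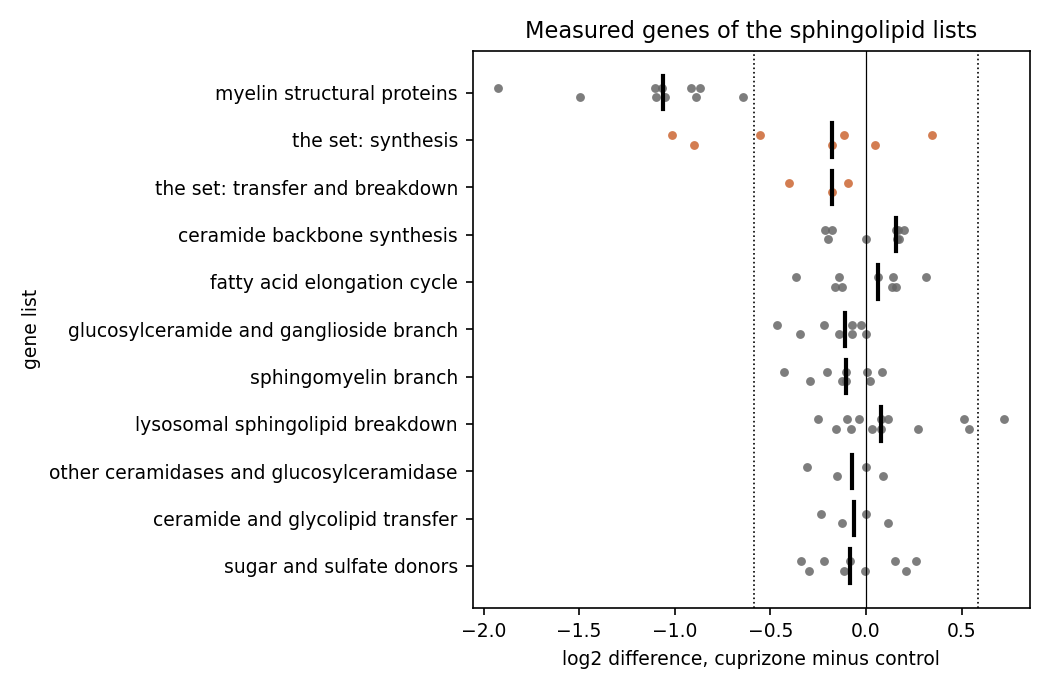
Log2 difference, cuprizone minus control, of each measured gene in 11 lists (points), with the median of each list as a black bar and 1.5-fold as dotted lines; the 10 enzymes are in orange. The structural proteins lie from -1.93 to -0.64, the synthesis genes spread from -1.01 to 0.34, and the medians of the other lists lie between -0.18 and 0.16; with spike-in scaling the positive medians turn negative.

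For the lists that follow, 1.35% of all measured genes were lower and 1.6% higher by 1.5-fold or more. Genes of the ceramide backbone had 3 lower and 5 higher among 9 measured, a median of 0.16 and 0 past 1.5-fold. Sptlc2, a catalytic subunit of the first enzyme of sphingolipid synthesis, differed by 0.20 and its partner Sptlc1 by -0.20, while Degs2, the relative of Degs1, was lower by at least 0.13. The elongation cycle, which works with the elongases, had 4 lower and 5 higher of 9, a median of 0.06 and 0 past 1.5-fold. Elovl4, which makes the longest chains, differed by -0.37, Elovl6, which starts from palmitate, by -0.16, and Hacd2, a dehydratase of the cycle, by 0.32.

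In 2 other branches that use ceramide or release it, no gene reached 1.5-fold. Nor did most measured genes, of which 1.35% were lower and 1.6% higher by that fold, so this says little about the branches. Of all measured genes 51.6% were lower by any amount. In the glucosylceramide and ganglioside branch 7 of 8 measured genes were lower, with a median of -0.11. B4galnt1, which makes complex gangliosides of neurons, differed by -0.47, the sialyltransferase St8sia1 by -0.35 and St3gal2, another, by -0.22. In the sphingomyelin branch 6 of 9 were lower, with a median of -0.11. Smpd2, a neutral sphingomyelinase, differed by -0.43, Sgms1, a sphingomyelin synthase, by -0.29 and the acid sphingomyelinase Smpd1 by -0.20.

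Donors of sugar and sulfate had 6 lower and 3 higher of 9, with a median of -0.08. Ugp2, which makes UDP-glucose, differed by -0.34, Papss2, which makes the sulfate donor that Gal3st1 uses, by -0.30, and Slc35a2, which carries UDP-galactose into the Golgi apparatus, by 0.26. Transfer proteins had a median of -0.06 over 4 measured genes. Among them the ceramide carrier Col4a3bp differed by -0.12 and Plekha8, a glycolipid carrier of the Golgi apparatus, by 0.11, while Gltpd2 lay within the background on both arrays at 4.44 and 4.20. Ceramidases and the non-lysosomal glucosylceramidase had a median of -0.08 over 4, with -0.31 for Gba2, 0.09 for Acer3 and Acer2 lower by at least 0.04.

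The list for lysosomal breakdown of other sphingolipids ran partly the other way from Galc as deposited. It also holds Arsb, Gusb, Sumf1 and Sumf2, which do not themselves break down sphingolipids. Arsb differed by 0.08, Gusb by 0.12 and Sumf1 by -0.25. Of 13 measured genes in the list 5 were lower and 8 higher, with a median of 0.08, where 45.3% of all measured genes were higher. Gla, counted as higher, lay within the background on both arrays at 4.41 and 4.68. The 1 gene of the 65 past 1.5-fold was in this list, where 1.6% of all measured genes were higher by that fold. Hexa, a subunit of the hexosaminidase that degrades gangliosides, went from 6.58 to 7.09, a difference of 0.51. Sumf2, a relative of the enzyme that activates sulfatases such as Arsa, went from 5.13 to 5.66, a difference of 0.54. Both stayed higher with either spike-in scaling, since each exceeds 0.38. The median of the list did not, and became -0.21 with hybridization and -0.32 with poly-A spike-in scaling. Microglia markers were higher on the same array, as given above, and their part in these values was not tested.

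**Figure D4:**
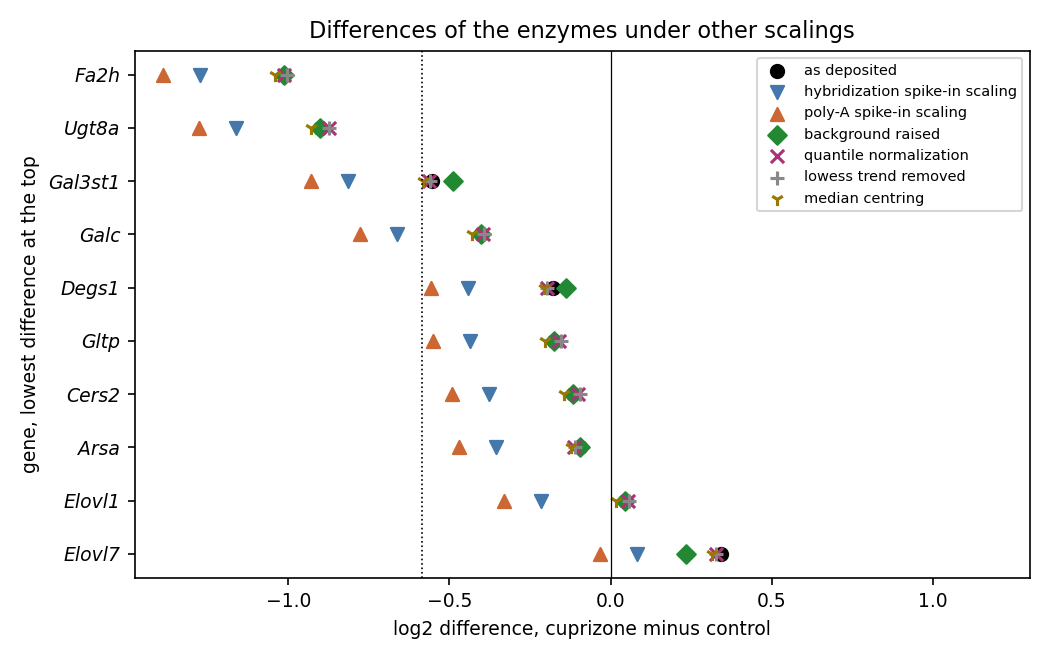
Log2 difference, cuprizone minus control, of the 10 enzymes as deposited (black) and under 6 other treatments of the values (symbols), with 1.5-fold lower as a dotted line. Fa2h and Ugt8a lie beyond that line in each, Gal3st1 and Galc pass it with spike-in scaling, and Elovl1 and Elovl7 turn from positive to negative with it, Elovl7 with the poly-A spike-ins only.

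The order of the 10 genes was the same as deposited and after shifting by the spike-ins, because that step moves each gene by a constant. With hybridization spike-in scaling the median of all measured genes moved to -0.28, 8.64% of them were at least 1.5-fold lower and 0.422% higher. With poly-A spike-in scaling the median was -0.40 and the shares were 18.7% and 0.228%. Gal3st1 and Galc joined Fa2h and Ugt8a past the threshold under both, for a count of 4 of 10 against those larger shares. RMA had already equalised the distribution of the arrays, so a change of total RNA per sample is not seen in the values as deposited.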

How the data were processed

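RNA of 2 mice was measured, 1 array per group, grouped by the treatment label. Values are log2 levels of probe sets as the authors deposited them. The submitters' processing notes name RMA and Affymetrix Power Tools, both without a version, and name no genome build. RMA subtracts background, equalises the arrays' distributions and summarises probes. All 41345 probe sets were also in the series matrix, with values within 5e-05. Of the measured genes, 509 had the same level on both arrays to the last deposited digit. Of the probe sets, 31872 carried 1 gene symbol.

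Differences are cuprizone minus control with no further centring, computed with Python 3.11.15, pandas 2.3.3, numpy 2.4.6 and statsmodels 0.14.6, and the counting code was tested on simulated data. A single array a group allows no test or SD. A call is a fold of at least 1.5. The background bound comes from 1461 receptor genes. The 10 genes, the lists and the alternatives were chosen with earlier results of these data known. Named genes are the 10, the 3 measured genes of each list with the largest absolute difference, the myelin proteins Mbp, Mog, Mag and Cnp and the markers Cd68, Aif1, Gfap, Pdgfra, Snap25, Gabra6 and Pcp2; some genes that the rule names are not reported here. Searches for protein motifs were planned and not run. Alternatives were median centring, lowess (span 0.2), quantile normalization, spike-in scaling (18 hybridization or 39 poly-A probe sets, median difference), the other table, probe set means, dropping the level filter, a stricter one at the 75th percentile (5.55), raising values to the background bound and a 2-fold threshold.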

Additional observations from a re-analysis of the deposited data

How the results depend on the processing

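No paired analysis was possible because each group had 1 array, and no array could be left out. A value was taken as moved when it changed by over 0.1 on the log2 scale, since no replicate spread exists. Under 11 alternatives, 51 of 236 values moved and 0 of those past 1.5-fold changed sign. The difference of Fa2h ranged from -1.39 to -1.004 and that of Ugt8a from -1.28 to -0.88. Fa2h and Ugt8a were both past 1.5-fold under the 10 alternatives that keep that threshold; at 2-fold the count was 1. The spike-in scalings gave a count of 4, where 8.64% (hybridization) and 18.7% (poly-A) of measured genes were at least 1.5-fold lower. The median of the 10 enzymes was -0.44 with hybridization and -0.55 with poly-A spike-in scaling, and -0.54 with the filter at the 75th percentile, which left 4 genes. In the same order of scalings, medians were -0.44 and -0.56 for the synthesis genes (-0.90 over 3 genes with that filter), -0.44 and -0.55 for transfer and breakdown, -0.10 and -0.22 for the ceramide backbone, -0.20 and -0.31 for elongation, -0.37 and -0.48 for the ganglioside branch, -0.37 and -0.48 for sphingomyelin, -0.21 and -0.32 for lysosomal breakdown, -0.34 and -0.45 for ceramidases, -0.32 and -0.44 for transfer proteins, -0.35 and -0.46 for sugar and sulfate donors (-0.19 over 4 genes with that filter) and -1.32 and -1.44 for structural proteins. The spike-in scalings subtract a constant, which also brought 1 more gene into the lysosomal list (14 measured). The difference of Elovl7 was 0.23 with values raised to the background bound. The values of Gal3st1, Degs1, Arsa and Elovl7 are limited by signal over background on 1 array.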
